A study of Homo sapiens with 13 samples.

Results

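Cells read BMP, activin, Nodal and TGF-beta ligands through paired serine/threonine kinase receptors, and the transcripts of 10 such receptors were followed here. They were chosen by symbol, BMPR1A, BMPR1B, BMPR2, ACVR1, ACVR1B, ACVR2A, ACVR2B, ACVRL1, TGFBR1 and TGFBR2, and all 10 were found once among the 61546 features of each of 2 count tables. All cells were of RUES2, a human embryonic stem cell line that carried a GFP::SMAD4 fusion and was grown in the maintenance medium mTeSR1 with ROCK inhibitor (RI). In the time series, 7 libraries of rRNA-depleted RNA followed cells given 100 ng/mL BMP4, 5 µM IWP2 (an inhibitor of WNT secretion) and RI. The start, 0 h, had 2 libraries, whose labels name that same treatment, and 4, 12, 20, 28 and 42 h had 1 each. In the dose response, 6 polyA-selected libraries were made at 5 h, 1 of cells left untreated, labelled mTeSR, and 1 for each of 5 concentrations (0, 10, 30, 100 and 300 nM) of LDN-193189, or LDN, added to that treatment. LDN is a small molecule that blocks the kinases of BMP type I receptors. The sources used here did not say whether the 0 h libraries came from separate cultures, so their spread may be technical. The reporter line is a single genetic background, and GFP is fused to the protein that all these receptors signal through.

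In this pathway a ligand brings together type II receptors, whose kinases are always active, and type I receptors, which the type II receptors phosphorylate. The activated type I receptor then phosphorylates a receptor SMAD. BMPR1A, BMPR1B, ACVR1 and ACVRL1 pass BMP-class signals to SMAD1, SMAD5 and SMAD9, whereas ACVR1B and TGFBR1 pass activin, Nodal and TGF-beta signals to SMAD2 and SMAD3. Both kinds of receptor SMAD then join SMAD4. Among type II receptors, BMPR2 is the one dedicated to BMP ligands, ACVR2A and ACVR2B take part in both branches, and TGFBR2 binds TGF-beta. In pluripotent stem cells the activin and Nodal branch maintains the undifferentiated state, while BMP drives differentiation to extraembryonic fates, here to cells like amnion.

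Total counts ran from 37957385 to 71333471 in the time series and from 15600931, in untreated cells, to 33989998 in the dose response. Mitochondrial transcripts took 7.60% and 4.29% of counts in the 0 h libraries and 2.01 to 4.23% later, and 7.89% in untreated cells against 4.22 to 4.49% in the 5 treated libraries. Of 5 pluripotency markers, 4 were called lower at 42 h while POU5F1 was not. The summed level of the 5 went from 2310 and 2803 at 0 h to 1444 scaled counts per 1e6 reads (CPM). Most of the 42 h sum was POU5F1, at 986 and 1675 at 0 h and 1321 at 42 h. SOX2 fell from 383 and 365 to 13.4 and DPPA4 from 745 and 588 to 108. NANOG fell from 144 and 113 to 1.24 and PRDM14 from 52.8 and 62.2 to 0.226. The 6 amnion markers summed to 2.72 and 2.7 at 0 h and 4521 at 42 h, of which HAND1 made up 3367. All 6 were called higher at 42 h, VTCN1 at that time only. GABRP was first called lower, at 12 h (log2 -1.13, edgeR adjusted p = 0.0437) and 20 h (log2 -1.80, edgeR adjusted p = 2.29e-04). Markers of mesoderm and endoderm summed to at most 5.45 CPM at any time, with TBXT at no more than 0.287. Even so, EOMES was called higher from 4 to 28 h, at 0.207 and 0.300 at 0 h against 3.53 at 20 h (log2 3.74 ± 0.49, edgeR adjusted p = 8.70e-13). That sum hid opposite moves of FOXA2 and SOX17, which were too scarce to be tested. FOXA2 had 3.14 and 2.84 CPM in the 0 h libraries, and every later library had between 0.0681 and 0.166. SOX17 had 0.0778 and 0.0546 CPM in the 0 h libraries and peaked with 1.53 in the 28 h library. MIXL1, also not tested, stayed between 0.579 and 1.40 CPM. The 7 endothelial markers, listed because ACVRL1 and ENG are known from those cells, summed to 84.4 and 76.5 at 0 h and 13.6 at 42 h, mostly KDR and TEK, with PECAM1 and CDH5 at no more than 0.153 and 0.339. VWF of that list was called higher from 20 h on, at 0.881 and 0.819 at 0 h against 2.92 at 42 h (log2 1.78 ± 0.45, edgeR adjusted p = 3.68e-04). In bulk RNA, fewer cells of a type and less RNA per cell cannot be told apart, so each receptor value is an average over a population whose makeup changed with time. The part of that change in the receptor results was not tested.

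Within a library, levels of different genes can be set side by side only per length, in the deposited FPKM (fragments per kilobase of transcript, scaled to library size). At 0 h ACVR2B led, at 32.3 and 30.2 FPKM in the 2 libraries, followed by BMPR1A at 23.8 and 23.3 and TGFBR1 at 19.3 and 18.5. ACVR1B came next at 8.04 and 7.34 and ACVR2A at 6.74 and 7.37, in an order that differed between the 2 libraries. ACVR1 stood at 5.49 and 5.53, BMPR2 at 4.09 and 2.80 and TGFBR2 at 2.62 and 2.5, in that order within each library. BMPR1B was at 0.48 and 0.24 and ACVRL1 at 0.01 and 0.15. Both were last in the order of all 13 libraries. From 4 h on BMPR1A headed the order at 48.5 to 61.7 FPKM, with ACVR2B second at 28.6 to 39.7. ACVR1 climbed from sixth place at 0 h to the third at 28 h only, at 19.6 FPKM against 17.9 for TGFBR1. At 42 h ACVR1 was again below TGFBR1, at 15.0 against 16.2. In the dose response BMPR1A was first in every library, the untreated one included.

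Reference promoters are shown for the 4 receptors whose level followed the LDN dose, with their values given further on. RefSeq entries of 300 bases, 250 before and 50 from the transcription start, were matched for 9 of the 10 receptors, all but ACVRL1. Capitals mark GGCGCC and GGAGCC, GC-rich elements known to bind BMP-activated SMAD complexes, and CAGAC, a SMAD box, each searched on both strands, so GGAGCC may read GGCTCC and CAGAC may read GTCTG.
BMPR1A promoter, GRCh38.p14 chr10:86755513-86755812, plus strand: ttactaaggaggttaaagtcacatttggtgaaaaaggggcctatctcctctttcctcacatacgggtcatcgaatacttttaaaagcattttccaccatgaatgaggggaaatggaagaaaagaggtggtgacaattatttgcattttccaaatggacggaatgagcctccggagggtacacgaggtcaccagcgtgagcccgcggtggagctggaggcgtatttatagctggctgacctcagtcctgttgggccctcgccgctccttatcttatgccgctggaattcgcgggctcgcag
BMPR2 promoter, GRCh38.p14 chr2:202376077-202376376, plus strand: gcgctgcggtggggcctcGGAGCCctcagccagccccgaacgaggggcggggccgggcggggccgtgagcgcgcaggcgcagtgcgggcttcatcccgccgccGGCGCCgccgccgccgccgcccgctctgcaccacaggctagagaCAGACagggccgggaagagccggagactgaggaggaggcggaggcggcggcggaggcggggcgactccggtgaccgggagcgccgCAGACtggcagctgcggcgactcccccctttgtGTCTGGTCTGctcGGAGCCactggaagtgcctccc
ACVR1 promoter, GRCh38.p14 chr2:157876281-157876580, minus strand: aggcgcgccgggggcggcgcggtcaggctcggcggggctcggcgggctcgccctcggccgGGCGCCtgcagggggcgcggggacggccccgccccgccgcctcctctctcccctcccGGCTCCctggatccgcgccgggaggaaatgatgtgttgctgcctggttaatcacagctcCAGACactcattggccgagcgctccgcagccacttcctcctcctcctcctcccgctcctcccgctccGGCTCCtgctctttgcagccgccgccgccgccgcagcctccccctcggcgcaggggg
TGFBR2 promoter, GRCh38.p14 chr3:30606351-30606650, plus strand: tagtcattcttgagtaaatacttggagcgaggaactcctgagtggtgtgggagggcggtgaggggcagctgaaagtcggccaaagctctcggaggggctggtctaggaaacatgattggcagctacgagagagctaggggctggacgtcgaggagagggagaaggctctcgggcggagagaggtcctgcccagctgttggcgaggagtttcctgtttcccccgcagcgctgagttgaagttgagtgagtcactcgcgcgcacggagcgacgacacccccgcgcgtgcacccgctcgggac
The BMPR2 window held 1 GGCGCC, 2 GGAGCC and 4 CAGAC, and the ACVR1 window 1, 2 and 1 of them. Neither the BMPR1A nor the TGFBR2 window held any of the 3. Over all 35116 promoters of the table, 19.2% held GGCGCC, 36% GGAGCC and 45.3% CAGAC, while the palindrome GTCTAGAC, held by 0.202%, was in none of the 9 receptor windows. Among receptors with no called dose trend, the ACVR1B window held 4 GGCGCC and 2 GGAGCC and the TGFBR1 window 4 GGAGCC and 1 CAGAC, so matches were not limited to those with a called trend. The G and C content was 76.7% for BMPR2 and 76.3% for ACVR1 against 50.3% for BMPR1A. The BMPR1A entry starts transcription 856 bases before the start site of the main GENCODE transcript, and its window lies inside the span of an unnamed antisense transcript, ENSG00000272631. A match here is only a match of letters.

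BMPR1A, the BMP type I receptor with the highest level in these cells, rose, with calls from 12 h on. Its TMM-scaled CPM, a count corrected for library size and composition, was 96.4 and 90.9 at 0 h, 173 at 4 h, then 207, 224, 238 and 253 in the libraries of 12, 20, 28 and 42 h. Every later library was above both 0 h libraries. Against 0 h, the quasi-likelihood F test of edgeR, adjusted by Benjamini-Hochberg over all genes, gave a log2 difference of 0.89 ± 0.33 (SE) at 4 h, which did not pass the threshold of 0.05 (adjusted p = 0.110, and 0.0481 to 0.279 over the alternatives). The difference was called from 12 h on, at 1.14 (adjusted p = 0.00650, and up to 0.0669 with limma on log2 FPKM, where the 12 h call was lost), and reached 1.44 ± 0.32 at 42 h (adjusted p = 5.48e-05). The linear trend over the 7 libraries was 0.31 ± 0.09 log2 per 10 h by the same test (adjusted p = 0.0231). That trend was lost without 0 h replicate 1 (adjusted p = 0.0730), without the 28 h library (adjusted p = 0.0517) and with library totals as the scale (adjusted p = 0.0734), out of a range of 0.00108 to 0.0734 over 15 alternatives, and most of the rise lay before 12 h, which a line describes poorly. BMPR1A (ENSG00000107779, chromosome 10, 86756596 to 86932825, plus strand, in GENCODE release 44 on GRCh38) has 2 processed pseudogenes, each with at most 15 counts in any library. The antisense transcript named above had 215 and 269 counts at 0 h and 349 to 499 later, against 3718 or more for BMPR1A, and whether reads were counted by strand is not given in the sources used here.

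**Figure D1:**
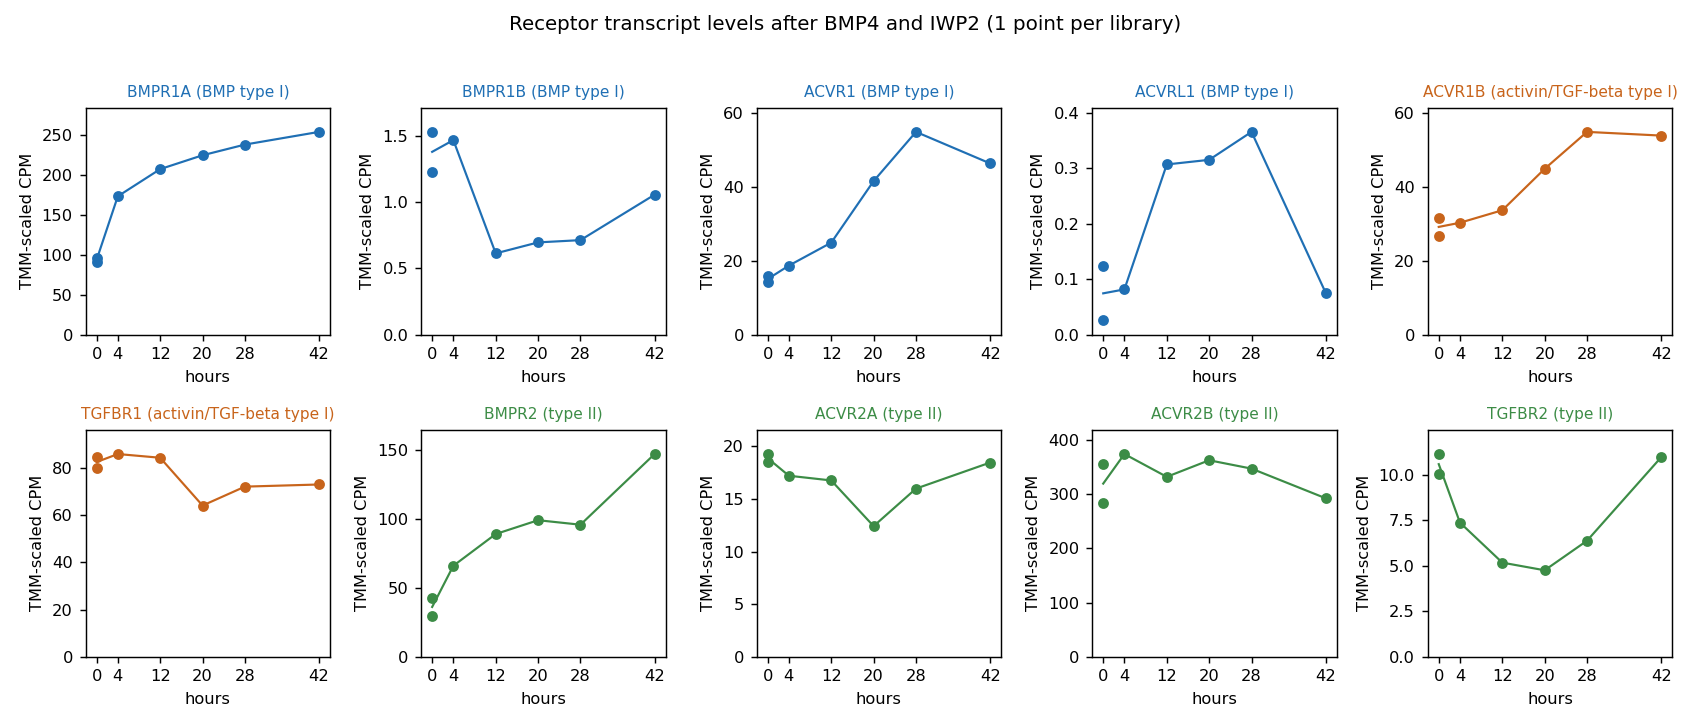
Scaled CPM of each receptor against hours of BMP4 with IWP2, 1 point per library with a line through the 0 h mean, each panel on its own axis from 0. BMPR1A, BMPR2, ACVR1 and ACVR1B were higher at 42 h than in both 0 h libraries, and TGFBR2 dipped to 4.75 at 20 h and was back at 10.97 at 42 h.

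BMPR2, the BMP type II receptor, had the largest rise of the 10 from 0 to 42 h. It was at 42.4 and 29.8 scaled CPM at 0 h, 65.9 at 4 h, then 88.9, 98.96, 95.7 and 147 in the 4 later libraries. The 2 libraries at 0 h differed more for BMPR2 than for any other receptor above 1 CPM, with a log2 SD of 0.35 (n = 2), and every later library lay above both. The difference from 0 h was 0.87 ± 0.32 log2 at 4 h (edgeR adjusted p = 0.112) and was called in the 4 later libraries, with values of 1.3, 1.46, 1.41 and, last, 2.03 ± 0.32 (edgeR adjusted p = 1.99e-09). The trend was 0.43 ± 0.09 log2 per 10 h (edgeR adjusted p = 0.00666). In FPKM, which do not sum to 1 total in every library, the rise was smaller, from 4.09 and 2.80 to 11.1. With limma on log2 FPKM the 42 h difference was still called (highest adjusted p = 0.0145), while those of 12, 20 and 28 h were not (highest adjusted p = 0.126, 0.0658 and 0.0653). BMPR2 (ENSG00000204217) lies on chromosome 2, 202376327 to 202567751, plus strand.

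ACVR1, the BMP type I receptor also known as ALK2, rose as well, with calls from 20 h on. Its scaled CPM was 15.8 and 14.2 at 0 h, 18.7 at 4 h, then 24.9, 41.5, 54.8 and 46.3 in the libraries of 12, 20, 28 and 42 h. The values of 4 and 12 h were above both 0 h libraries but not called (log2 0.31 and 0.73, edgeR adjusted p = 0.967 and 0.149). The differences of 1.47, 1.87 ± 0.30 and 1.62 ± 0.30 in the last 3 libraries were called (edgeR adjusted p = 2.21e-05, 1.41e-08 and 8.05e-07). The trend of 0.48 ± 0.08 log2 per 10 h was the steepest of the receptors (edgeR adjusted p = 0.00304). ACVR1 (ENSG00000115170) lies on chromosome 2, 157736251 to 157876330, minus strand.

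The 2 remaining BMP type I receptors were scarce. BMPR1B was at 1.53 and 1.23 scaled CPM at 0 h, 1.47 at 4 h, then 0.613, 0.696 and 0.713 at 12, 20 and 28 h and 1.06 at 42 h, from 36 to 90 counts. The 3 middle libraries were below all others, but no difference was called (lowest edgeR adjusted p = 0.198, at 20 h). ACVRL1, or ALK1, best known from endothelium, had 1 and 9 counts in the 0 h libraries, then 4, 18, 19, 21 and, in the last library, 4. It was under the minimum mean of 1 CPM and was not tested. In the dose response ACVRL1 had 0 to 7 counts, and the 0 counts at 300 nM allow a level of up to 0.0905 CPM, counting error only.

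Of the activin and TGF-beta type I receptors, ACVR1B (ALK4, used by activin and Nodal) rose, with calls from 28 h on. It was at 31.5 and 26.8 scaled CPM at 0 h, 30.3 at 4 h, then 33.6, 44.8, 54.8 and 53.8 in the 4 later libraries. Its 4 h value lay between the 0 h libraries and the last 3 were well above them. Differences were called at 28 h (log2 0.91 ± 0.31, edgeR adjusted p = 0.0204) and 42 h (0.89 ± 0.31, edgeR adjusted p = 0.0153), and the trend was 0.25 ± 0.04 per 10 h (edgeR adjusted p = 0.00375). Both differences were lost with limma on log2 FPKM, and that of 42 h also with library totals (0.65, adjusted p = 0.0864), with adjusted p of 0.0171 to 0.115 at 28 h and 0.0135 to 0.180 at 42 h over the alternatives. TGFBR1 (ALK5, used by TGF-beta) was at 84.9 and 80.2 at 0 h, 85.9 and 84.3 at 4 and 12 h and 64.1 to 73.0 from 20 h. Its values from 20 h on lay below both 0 h libraries, with no difference called (edgeR adjusted p of the trend = 0.227; with library totals the trend was -0.12 and adjusted p = 0.0453, of a range up to 0.617).

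Neither shared type II receptor had a called difference at any time. ACVR2B was at 355 and 284 scaled CPM at 0 h and at 374, 332, 362, 347 and 292 from 4 to 42 h, so that 3 of 5 later libraries lay between those of 0 h. ACVR2A was at 19.3 and 18.5 at 0 h, 17.2, 16.8, 12.4 and 16.0 from 4 to 28 h and 18.5 at 42 h, with its lowest value at 20 h (log2 -0.60 ± 0.32, edgeR adjusted p = 0.194). Neither trend was called (edgeR adjusted p = 0.704 for ACVR2B and 0.710 for ACVR2A). An antisense gene at the start of ACVR2B, ACVR2B-AS1, had 123 to 302 counts in these libraries.

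TGFBR2, the type II receptor for TGF-beta, was called lower at 12 and 20 h and not at 28 or 42 h. It was at 11.1 and 10.0 scaled CPM at 0 h, 7.38 at 4 h, then 5.18, 4.75, 6.38 and 10.97 in the libraries of 12, 20, 28 and 42 h. The 4 libraries from 4 to 28 h were below both 0 h libraries, and that of 42 h was between them. The log2 difference was -1.03 ± 0.35 at 12 h (edgeR adjusted p = 0.0322) and -1.15 ± 0.35 at 20 h (edgeR adjusted p = 0.00717), against 0.05 ± 0.33 at 42 h (edgeR adjusted p = 0.918). The 12 h call was lost with DESeq2 (adjusted p = 0.167) and without a minimum on counts (adjusted p = 0.0593), with log2 values of -1.04 in both, and adjusted p ran from 0.0296 to 0.237 over its alternatives. The 20 h call was lost with limma on log2(FPKM + 0.1) (adjusted p = 0.0720, of a range from 0.00548). The linear trend, which a dip escapes, was -0.02 ± 0.11 per 10 h.

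Of the 9 receptors tested for a time trend, 4 were called higher and 0 lower, beside 19.2% of 15976 genes higher and 17.5% lower. The edgeR counts at an unadjusted p under 0.05, and those of DESeq2, were also 4 and 0. Their median slope was -0.02 log2 per 10 h against 0.00 over all genes, since the other 5 had slopes below 0. Against 0 h, 0 of 9 receptors were called at 4 h, where 5.02% of genes were in either direction and where BMPR1A and BMPR2 had unadjusted p = 0.00671 and 0.00688 in edgeR. DESeq2 called 0 at 4 h too, and with library totals as the scale both passed (adjusted p = 0.0481 and 0.0491). The count was 2 higher and 1 lower at 12 h (9.68% of genes), 3 and 1 at 20 h (18.5%), 4 and 0 at 28 h (20.3%) and 4 and 0 at 42 h (37.7%). DESeq2 also called 0 lower at 28 and 42 h, and at an unadjusted p under 0.05 TGFBR2 was lower at 28 h (edgeR unadjusted p = 0.0315) and no receptor at 42 h. The contrasts with 0 h rest on the spread of the 2 libraries there, moderated over all genes. Each later library is assumed to vary as those of 0 h do. The SE therefore hardly followed the spread of a receptor itself. At 42 h it was 0.32 for both BMPR1A and BMPR2, whose log2 SDs at 0 h were 0.06 and 0.35. The trend rests instead on the scatter of 7 libraries about a line.

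The LDN series shows which of these levels followed the dose of the inhibitor at 5 h. Whether they followed it through BMP receptor activity was not tested. BMPR1A and BMPR2 fell with each added dose. BMPR1A was at 89.3 scaled CPM in untreated cells and at 181, 158, 148, 135 and 114 at 0, 10, 30, 100 and 300 nM. Its trend over the 5 doses was -0.16 ± 0.01 log2 per dose step (edgeR adjusted p = 2.73e-06). BMPR2 was at 29.6 in untreated cells and at 44.4, 37.8, 32.5, 28.6 and 25.7 over the doses, with a trend of -0.20 ± 0.02 (edgeR adjusted p = 3.92e-06). At 300 nM BMPR2 was below its untreated level in scaled CPM, with library totals and in FPKM. At 10 to 100 nM its side depended on the scale: at 100 nM it was above with library totals (28.8 against 28.4), and in FPKM it was below at 10 nM already (3.45 against 3.61). With FPKM rescaled to 1e6 per library (TPM), it was above at 10 nM (4.66 against 4.36) and below at 30 nM (3.86). BMPR1A was above its untreated level at every dose. Both trends were called under all 13 alternatives, with adjusted p of at most 0.0103 for BMPR1A and 0.0230 for BMPR2. RNA levels give neither the amount of receptor protein nor its activity.

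ACVR1 followed in the same direction by less. It was at 14.7 scaled CPM in untreated cells and at 21.9, 19.8, 18.9, 17.2 and 17.2 over the doses, a trend of -0.09 ± 0.02 log2 per step (edgeR adjusted p = 0.0104). The call was lost without the 0 nM library (-0.08, edgeR adjusted p = 0.135, of a range of 0.00825 to 0.135 over the alternatives). TGFBR2 went the other way, from 9.50 in untreated cells to 4.66 at 0 nM and 5.51, 6.0, 6.23 and 7.47 over the rising doses, a trend of 0.15 ± 0.04 (edgeR adjusted p = 0.0113). That call was lost without the 0 nM library (edgeR adjusted p = 0.104) and without the 300 nM library (edgeR adjusted p = 0.145), with slopes of 0.14 in both, and adjusted p ran from 0.00711 to 0.159 over the alternatives. TGFBR2 rests on 136 to 249 counts in these 5 libraries.

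**Figure D2:**
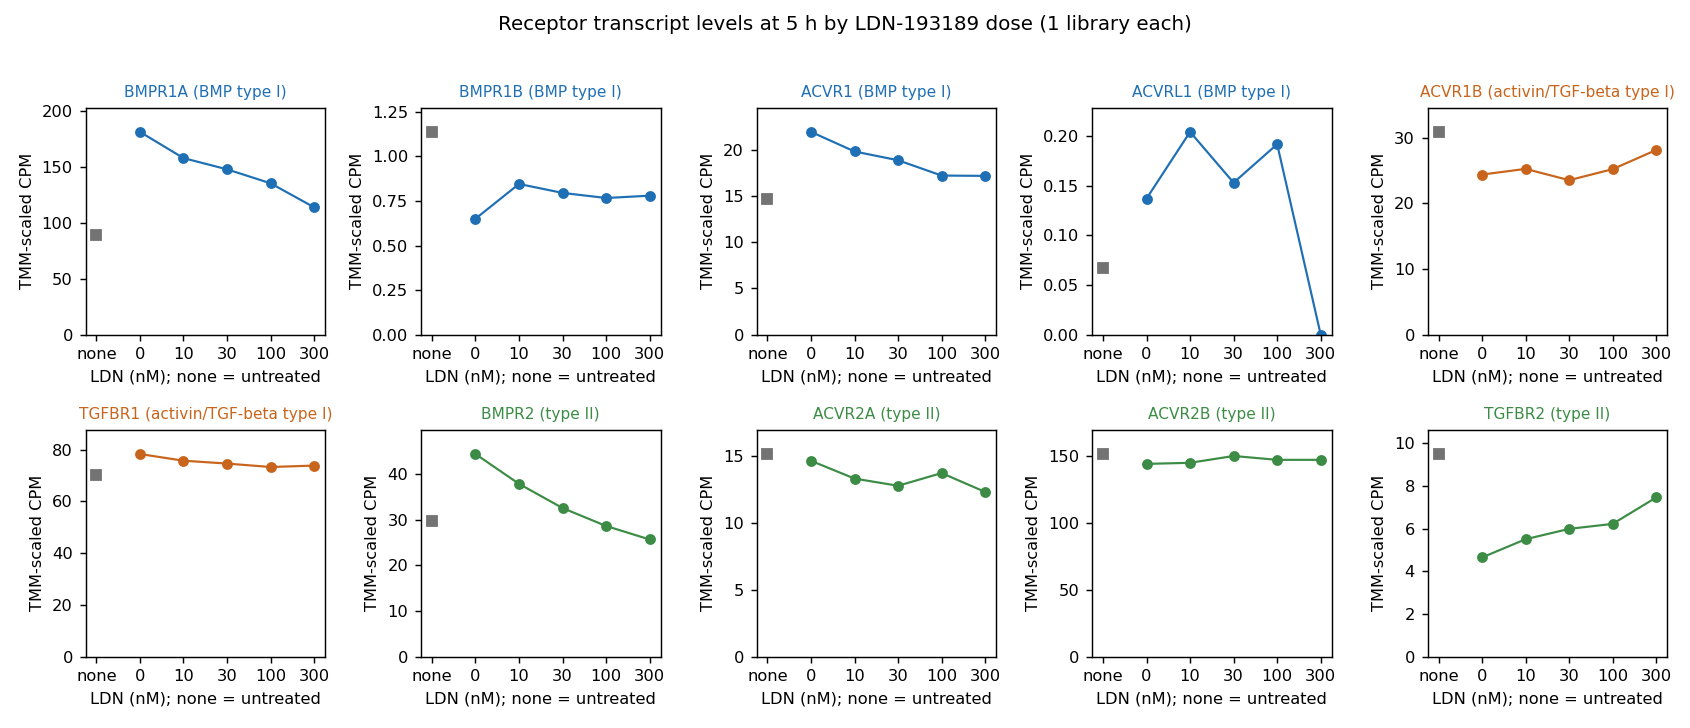
Scaled CPM of each receptor at 5 h in untreated cells (square, "none") and with BMP4, IWP2 and 0 to 300 nM LDN (circles), 1 library each, each panel from 0. BMPR1A and BMPR2 step down with every dose, TGFBR2 steps up, and ACVR2B and TGFBR1 are nearly level.

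The other 4 receptors tested had no called dose trend. ACVR2B lay between 144 and 150 scaled CPM over the 5 doses and at 152 in untreated cells, a trend of 0.01 ± 0.01 log2 per step. TGFBR1 lay between 73.2 and 78.3 (-0.02 ± 0.01), ACVR1B between 23.6 and 28.2 (0.04 ± 0.02) and ACVR2A between 12.3 and 14.6 (-0.05 ± 0.03), all with edgeR adjusted p of 0.210 or more. BMPR1B, at 0.650 to 0.845 over the doses against 1.14 in untreated cells, was below the minimum. Of the 8 receptors tested, 3 were called lower and 1 higher, beside 10.9% of 14874 genes lower and 10.4% higher. Their median slope was -0.03 against 0.00 over all genes. These doses had 1 library each, so neighbouring doses cannot be told apart by a test.

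**Figure D3:**
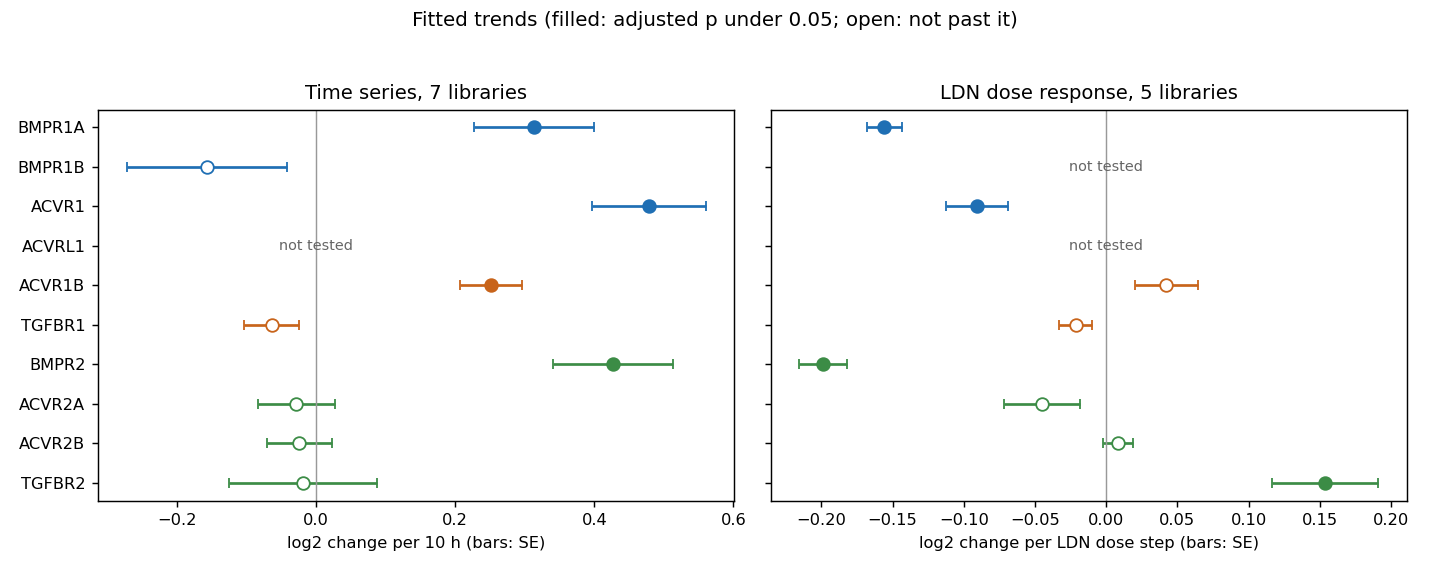
Fitted slopes with standard errors for each receptor, as log2 change per 10 h over 7 libraries (left) and per LDN dose step over 5 libraries (right). Filled points passed an adjusted p of 0.05. BMPR1A, BMPR2 and ACVR1 had slopes above 0 in time and below 0 with dose, ACVR1B passed in the time trend and TGFBR2 in the dose trend.

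Set against untreated cells, with 1 library a side and so no test, the treatment without LDN gave the largest ratio among the receptors for BMPR1A. That ratio was 2.02 (log2 1.02), BMPR1A was the only one more than 1.5-fold higher, and TGFBR2 at 0.515 (log2 -0.96) was the only one more than 1.5-fold lower, of 8 measured. Over all genes, 11.3% were past 1.5-fold higher and 6.61% lower. BMPR2 at 1.49 and ACVR1 at 1.47 fell just short, and with library totals as the scale both passed. At 300 nM no receptor was past 1.5-fold, against 5.73% of genes higher and 3.21% lower, with BMPR1A at 1.27, BMPR2 at 0.868, ACVR1 at 1.16 and TGFBR2 at 0.796. In FPKM, BMPR2 differed from untreated cells by log2 0.21 at 0 nM and -0.64 at 300 nM, where counts gave 0.57 and -0.20. The share of the difference between 0 nM and untreated cells that was left at 10, 30, 100 and 300 nM was 74.5, 63.6, 50 and 26.7% for BMPR1A. For BMPR2 it was 55.7, 19.7, -7.0 and -27.0% in scaled CPM, and the sign at 10 to 100 nM depended on the scale, as above. For TGFBR2 it was 82.4, 72.4, 67.5 and 42.0%, and for ACVR1 70.6, 57.5, 34.6 and 34.1%. The untreated library also lacked IWP2, had the lowest depth and the highest mitochondrial share, and the part of these in the ratios was not tested.

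Both experiments held an early time. At 4 h against 0 h the log2 differences of BMPR1A, BMPR2, ACVR1 and TGFBR2 were 0.89, 0.87, 0.31 and -0.52. At 5 h against untreated cells they were 1.02, 0.57, 0.56 and -0.96. Times, reference libraries, RNA extraction kits and RNA selection differed between the 2 sets, so the values stand side by side without a test. Levels were not compared across the preparations, and each was scaled on its own. The ACVR2B values, 284 to 374 scaled CPM in the rRNA-depleted libraries and 144 to 152 in the polyA ones, are not on 1 scale.

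Receptors were also summed by branch within each library. The ratio of BMP type I FPKM (BMPR1A, BMPR1B, ACVR1 and ACVRL1) to activin and TGF-beta type I FPKM (ACVR1B and TGFBR1) was 1.09 and 1.13 at 0 h and then 1.84, 2.24, 2.68, 2.56 and 2.75 in order of time. Every later library lay above those of 0 h. It was 1.35 in untreated cells and 2.63, 2.38, 2.47, 2.25 and 1.60 from 0 to 300 nM LDN. BMPR1A made up 75.5 to 85.6% of the BMP type I sum in all 13 libraries. The ratio of BMPR2 to ACVR2B was 0.127 and 0.0927 in the 0 h libraries, then 0.174, values of 0.220 to 0.239 and, in the last library, 0.387, so ACVR2B remained the more abundant per length throughout. It was 0.285 in untreated cells and fell from 0.327 at 0 nM to 0.177 at 300 nM. These ratios were chosen after the values were seen and carry no test, and transcript ratios do not give those of the proteins.

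**Figure D4:**
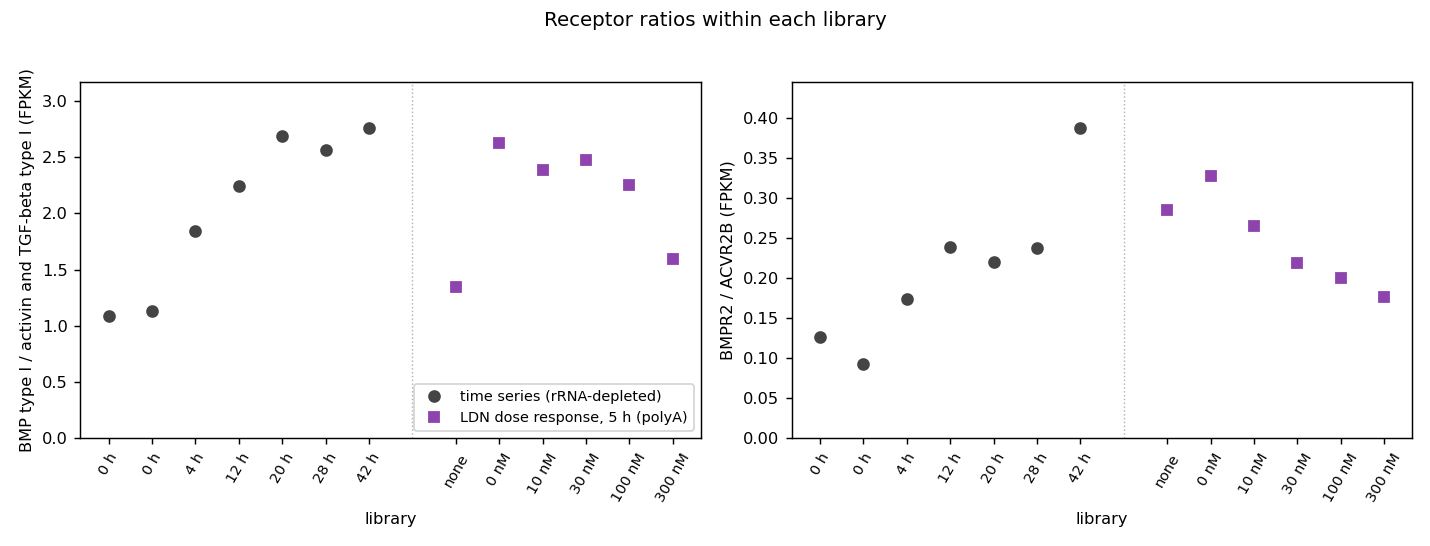
Ratios within each library of BMP type I to activin and TGF-beta type I FPKM (left) and of BMPR2 to ACVR2B FPKM (right), for the time series (circles) and the dose response (squares, "none" being untreated). The left ratio goes from 1.09 and 1.13 at 0 h to 2.75 at 42 h, and from 2.63 without LDN to 1.60 at 300 nM.

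The genes whose profile over the 6 times was most like that of BMPR2, the receptor with the largest rise, were TEAD1, a DNA-binding partner of YAP (Pearson r = 0.997, from 112 to 316 scaled CPM), PDZD2 (0.994, from 15.6 to 82.6) and ZBTB18 (0.991, from 18.2 to 63.4). BMPR1B was the receptor with the largest net fall, though that fall was small (log2 -0.27) and not called. The genes most like it were DCUN1D2 (0.980, from 17.0 to 15.9), NAV1 (0.976, from 185 to 139) and PES1 (0.965, from 195 to 181). Each was picked from 10378 genes over 6 points, and the values are given as a description.

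Beside the receptors, cells carry co-receptors and a decoy, of which 12 were listed and 8 reached the minimum in each table. BAMBI, a pseudoreceptor that resembles a type I receptor without a kinase and dampens signalling, went from 8.92 and 10.0 scaled CPM to 222 within 4 h and 1067 by 42 h (log2 6.81 ± 0.38, edgeR adjusted p = 2.91e-70). It was at 12.8 in untreated cells, 312 at 0 nM and 49 at 300 nM (trend -0.63 ± 0.07, edgeR adjusted p = 3.19e-05). TDGF1, the Nodal co-receptor CRIPTO, fell from 604 and 561 to 13.5 at 42 h (log2 -5.43 ± 0.46, edgeR adjusted p = 2.88e-30), and rose with dose from 511 to 625 (0.07 ± 0.01 per step, edgeR adjusted p = 1.33e-04). In untreated cells TDGF1 was at 967, so at 300 nM it was still more than 1.5-fold lower than there (ratio 0.646). ENG, endoglin, went from 3.42 and 3.63 to 31.8 and fell with dose from 4.79 to 3.03, with 4.55 in untreated cells (-0.19 ± 0.05, edgeR adjusted p = 0.0152). RGMA, a BMP co-receptor of the repulsive guidance family, fell from 88.5 and 85.8 to 26.0. With dose it rose from 23.7 to 34.3, still below the 47.0 of untreated cells (0.15 ± 0.02, edgeR adjusted p = 3.87e-04). CFC1, a relative of TDGF1, was at 0.544 and 0.901 in the 0 h libraries, 12.9 in that of 4 h and 0.339 in the last. With dose it fell from 11.5 to 1.32, with 0.535 in untreated cells. CFC1 has a near-identical copy, CFC1B, so reads may be split between them. NEO1, the RGM receptor neogenin, was highest at 12 h, at 159 against 101 and 75.9 at 0 h. Neither that difference (log2 0.85) nor any other of NEO1 in time was called. With dose NEO1 fell from 126 to 91.4, with 106 in untreated cells (-0.12 ± 0.01, edgeR adjusted p = 1.33e-05).

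Over the time trend 2 of the 8 were called higher (ENG and TGFBR3) and 3 lower (TDGF1, RGMA and RGMB), with TGFBR3 and RGMB named after their values were seen, beside 19.2% of all genes higher and 17.5% lower. BAMBI, called at every time against 0 h, was not called in the linear trend (edgeR adjusted p = 0.0592). With dose, 4 were called lower (BAMBI, CFC1, NEO1 and ENG) and 2 higher (TDGF1 and RGMA), beside 10.9% of all genes lower and 10.4% higher. The median over the 8 was -0.17 log2 per 10 h and -0.06 per dose step. ACVR1C (ALK7), AMHR2, HJV and CFC1B were below the minimum in both.

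The known BMP targets ID1 to ID4, SMAD6 and SMAD7 checked the treatment itself. All 6 were called higher at each time against 0 h and lower with LDN dose. ID1 was at 55.5 and 62.2 scaled CPM at 0 h and 870 at 4 h, and at 68.5 in untreated cells, 1038 at 0 nM and 374 at 300 nM. SMAD6 had the steepest dose trend of the 6, -0.92 ± 0.03 log2 per step (edgeR adjusted p = 1.14e-08), against -0.16 for BMPR1A and -0.20 for BMPR2.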

How the data were processed

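RNA was sequenced from the 13 libraries described above. According to the study's methods, the authors trimmed reads with Cutadapt, aligned them with STAR 2.7.8a to GRCh38 and quantified them with RSEM 1.3.3. The Ensembl release and the strandedness of counting are not given in the sources used here. The authors deposited expected counts, whole numbers here, and FPKM rounded to 2 decimals, per gene and library. The members and gene lists were chosen with earlier results of these data known. From the expected counts, counts per 1e6 reads (CPM), scaled by TMM, were computed per experiment, and genes averaging 1 CPM or more were kept. Trends over hours (7 libraries) and over LDN dose step (0 to 4, 5 libraries, without the untreated one) and contrasts of each time with 0 h were fitted with edgeR 4.0.16 (quasi-likelihood F test, Benjamini-Hochberg over all genes, threshold 0.05) in R 4.3.3. Later times and doses have 1 library each, so the time contrasts have 1 residual degree of freedom per gene, moderated over all genes. Comparisons with untreated cells are ratios of scaled CPM plus 0.5, read against 1.5-fold. FPKM served to compare receptors within a library. The dose step stood in for SMAD4 signaling, whose values are outside the deposited tables. As an alternative covariate, the study's time integral of SMAD4 signaling at each dose was tried. That integral comes from the study's imaging and not from these RNA samples. DESeq2 1.42.0, limma 3.58.1 on log2 FPKM (plus 0.1 or 1), other scalings and minima, and leaving out libraries were the other alternatives. From each gene list, counts were given for all members, and by name the 4 with the largest absolute change from 0 to 42 h and any past the dose threshold. Genes of like pattern were taken from those averaging 10 CPM or more. Promoters came from RefSeq on GRCh38.p14 and gene positions from GENCODE release 44. The fits were tested on simulated counts.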

Additional observations from a re-analysis of the deposited data

How the results depend on the processing

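No receptor difference past its threshold or fold changed sign under any alternative. With library totals as the scale, which move the median of all genes by -0.22 log2 at 42 h, 1 receptor was called lower in the time trend (0 otherwise), 2 higher at 4 h (0 otherwise) and 3 past 1.5-fold higher at 0 nM against untreated cells (1 otherwise). With limma on log2 FPKM, at either pseudocount, the dose trend called 0 higher (1 otherwise), 12 h against 0 h called 0 higher and 0 lower (2 and 1 otherwise), and 28 h called 2 higher (4 otherwise). At 20 h it called 2 higher (3 otherwise), without BMPR2, and 0 lower with a pseudocount of 0.1 (1 otherwise). With FPKM, 2 receptors were past the fold higher at 0 nM against untreated cells and 1 lower at 300 nM (0 otherwise). At 2-fold, 0 were lower at 0 nM. Without a minimum on counts and with DESeq2, 12 h called 0 lower. Without the 0 nM or the 300 nM library the dose trend called 0 higher. The cause of these moves was not tested, beyond fewer libraries in the last. No paired analysis was possible because 0 h is the only group with more than 1 library. Leaving out a 0 h library left the time contrasts with no residual degree of freedom and so no test. Single libraries at later times and doses, and the few reads of BMPR1B and ACVRL1, limit what could be called.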

Other observations

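Proteins inside the cell tune these receptors by binding, trafficking or degrading them, and 18 of their genes were followed beside the receptors. In the time trend 4 were called higher and 4 lower (median 0.04 log2 per 10 h), beside 19.2% and 17.5% of all genes. With LDN dose 0 were called higher and 3 lower by edgeR (median -0.01 per step), beside 10.4% and 10.9% of all genes. DAB2, an endocytic adaptor, went from 5.26 and 3.84 scaled CPM at 0 h to 48.5 at 42 h, a log2 difference of 3.42 ± 0.31 (edgeR adjusted p = 2.31e-27). CAV1, the main protein of caveolae, fell from 8.55 and 6.80 to 1.13 (log2 -2.76 ± 0.44, edgeR adjusted p = 3.61e-09). ZFYVE9, which encodes SARA, an anchor that brings SMAD2 and SMAD3 to the activin and TGF-beta receptors, fell from 68.1 and 57.9 to 20.2 (log2 -1.64 ± 0.35, edgeR adjusted p = 2.18e-05). NEDD4L, a ubiquitin ligase, went from 95.3 and 78.0 to 43.8 (log2 -0.98 ± 0.34, edgeR adjusted p = 0.0145). SMURF1, USP4 and TAB1 were the other genes with a rising trend and XIAP the other with a falling one, named after their values were seen.

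With LDN dose, ZFYVE16, which encodes the endosomal protein endofin, fell from 39.4 scaled CPM at 0 nM to 27.3 at 300 nM, with 30.0 in untreated cells (-0.12 ± 0.02 log2 per step, edgeR adjusted p = 0.00440). XIAP, an inhibitor of apoptosis that also binds BMP type I receptors, fell from 65.1 to 56.8 (-0.05 ± 0.01, edgeR adjusted p = 0.0161). WWP1, a ubiquitin ligase, fell from 65.4 to 56.9 (-0.05 ± 0.01, edgeR adjusted p = 0.0235), below its untreated level of 68.4. FKBP1A, whose product FKBP12 holds type I receptors inactive, was at 160 to 178 over the doses with no called trend (edgeR adjusted p = 0.246) and at 220 in untreated cells.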
